A study of Homo sapiens with 16 samples.

Results

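Gemcitabine and genistein were set directly against each other in MiaPaCa2, a human pancreatic ductal adenocarcinoma cell line that the study placed in the quasimesenchymal subtype. The comparison used 4 of the 16 RNA libraries of the series. These were the 2 libraries of cells given 40 nmol/L gemcitabine without genistein and the 2 libraries of cells given 50 μmol/L genistein without gemcitabine, all harvested after 24 hours. They were chosen by their labels alone, and the untreated control libraries took no part in the main comparison. A difference between the drugs therefore shows which culture had more of a transcript, and not which drug moved it away from the untreated level. Cells grew in DMEM with 10% fetal bovine serum. Genistein was prepared in DMSO and gemcitabine was not, so the solvent and the drug cannot be told apart here. The 2 libraries of a group, I and II in the labels and replicates 1 and 2 below, were described as biological replicates of one cell line.

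Gemcitabine is a deoxycytidine analogue. Its phosphorylated forms are built into DNA, where they stop the replication fork, and they inhibit ribonucleotide reductase. Genistein is a soy isoflavone that binds estrogen receptors, inhibits tyrosine kinases and poisons topoisomerase II. Cells with stalled forks are known to arrest in S phase and to signal through ATR and CHK1, whereas topoisomerase II poisons and kinase inhibitors are often associated with arrest in G2/M or G1. Gene programs of cell cycle, growth, metabolism, stress, signalling and surroundings were therefore compared gene by gene.

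The deposited counts summed to 16233538 and 15885255 in the gemcitabine libraries and to 13101557 and 22254419 in the genistein libraries. The labelled cell type was checked first. The keratin KRT19 had 1180 to 3766 counts per library and vimentin (VIM) 83872 to 173790. The keratins KRT8 and KRT18 had 5392 to 8920 and 4762 to 8675 counts. Of the other quasimesenchymal markers AXL had 1308 to 1977 counts, ZEB1 140 to 371 and SNAI2 32 to 67. Of the other epithelial and cadherin markers EPCAM had 0 counts, CDH1 and CDH2 had at most 2 in any library, and the keratin KRT7 was sparse at 2 to 9. All 8 markers of acinar and endocrine pancreas were at 0 counts, and the 6 markers of leukocytes and fibroblasts summed to between 3 and 5 counts per library, with 4 of them (PTPRC, CD3E, DCN and LUM) at 0. CD68 had 1 to 4 counts but a deposited FPKM of 26.8 to 35.7, so for this gene the 2 deposited measures did not match. Replicates differed by more than counting noise, with a chi-square per degree of freedom of 5.63 between the gemcitabine and 6.41 between the genistein replicates. One technical property moved with the groups. The deviation of a gene from its mean over the libraries changed with the GC content of its exons by 0.14 and 0.048 log2 units per 10 percentage points in the gemcitabine libraries, and by -0.010 and -0.17 in the genistein libraries. Genistein replicate 2 stood farthest apart. Where removal of this GC trend changed the call of a gene named below, this is said beside it.

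Of 15448 genes with enough counts, 3747 differed between the drugs (24.3% of those tested). A gene was called when limma-voom gave a Benjamini-Hochberg adjusted p of at most 0.05, the absolute log2 fold change was at least 0.4 and the mean FPKM exceeded 1 with either drug. Positive log2 fold changes are higher with gemcitabine throughout. Transcripts higher with gemcitabine numbered 2215 (14.3% of genes tested) and those higher with genistein 1532 (9.92%), so 59.1% of calls were on the gemcitabine side. With the GC trend removed, 3909 genes were called, 1611 on the gemcitabine and 2298 on the genistein side (41.2% gemcitabine), and with library size in place of TMM scaling 78.7% of calls were on the gemcitabine side. The balance between the sides thus moved with the scaling. Over all genes the log2 fold changes had a median of -0.005, and it was 0.12 with library size alone, 0.094 on log2(FPKM + 1) and -0.078 after GC correction. Among 36 gene lists, the count of members higher with genistein fell by over 1.5 times in 9 with library size alone and in 11 on log2(FPKM + 1), and rose by as much in 12 after GC correction. Of the 3747 calls, 2861 were also made in the same direction after GC correction and none in the opposite direction. Genes higher with gemcitabine had lower levels and larger differences. Their median level was 12.8 CPM (read counts scaled to a common library size) against 43.4 CPM for genes higher with genistein, their median log2 fold change was 0.78 against -0.56, and 692 of the 807 calls with an absolute log2 value of at least 1 were theirs. Their median exon GC content was 56.6% against 45.4%, and 48.0% over all genes tested. Of the 184 genes named below that were called on counts, 12 had deposited FPKM values that overlapped between the drugs, namely ATR, BOP1, BRCA2, DUSP8, E2F5, MUC1, PDE5A, PMEPA1, RP11-572C15.3, RXRA, UBBP4 and ULK1.

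Leading genes were picked among called genes with a mean of at least 1 CPM and groups that did not overlap. The 12 of them with the largest differences toward gemcitabine were all protein coding and all sparse. HTR1D, a serotonin receptor gene at chr1:23518388-23543995 of GRCh37, led them with 3.80 and 4.92 CPM with gemcitabine against 0.162 and 0.605 CPM with genistein, a log2 fold change of 3.47 ± 0.46 SE (adjusted p = 1.21e-05). CACNA1G, which encodes a T-type calcium channel, had 9.65 and 7.35 CPM with gemcitabine against 0.808 and 1.35 CPM with genistein. SCN4B, a sodium channel beta subunit, had 9.19 and 9.59 CPM with gemcitabine against 1.78 and 1.40 CPM with genistein, and both groups were tight and far apart. ADAMTS10, a secreted metalloprotease of microfibrils, differed by 3.14 and TNS1, a focal adhesion protein, by 3.03. The other members were GSG1L, PRRT4, TMPRSS2, EFEMP2, ACSL6, RGCC and RASD1, with log2 fold changes from 2.56 to 3.36. All 12 had a mean below 15 CPM with either drug. TMPRSS2 overlaps the interferon-induced MX1 on the opposite strand over 8.53% of its exons, and whether the counting used strand is not given in the sources used here.

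The 12 leading genes toward genistein, picked by the same filter of at least 1 CPM, were of another kind. Sparser called genes with larger differences were left out by that filter. Only 4 were protein coding and 5 were pseudogenes, whose reads can be shared with near-identical copies, so their values are uncertain. H1F0, the linker histone H1.0 gene at chr22:38201236-38203439, had the highest level among them. It had 73.6 and 72.7 CPM with gemcitabine against 210.2 and 214 CPM with genistein, a log2 fold change of -1.54 ± 0.09 SE (adjusted p = 3.47e-09). PDE5A, the cGMP phosphodiesterase, had 1.58 and 1.09 CPM with gemcitabine against 3.64 and 5.12 CPM with genistein, and METTL12, a mitochondrial methyltransferase gene that overlaps LBHD1 on the opposite strand, had 2.98 and 2.37 CPM with gemcitabine against 8.17 and 8.28 CPM with genistein. RP11-572C15.3, an annotated pseudogene, had 0 counts in both gemcitabine libraries against 12 and 77 with genistein. Its deposited FPKM values were 19.7 and 9.31 with gemcitabine against 16.3 and 16.2 with genistein, so the 2 deposited measures did not match and no fold is given. UBBP4, a ubiquitin pseudogene, rested on 1 library, with 2.11 and 1.58 CPM with gemcitabine against 2.26 and 29.0 CPM with genistein, and its FPKM values did not separate the drugs (424 and 409 against 502 and 382). Without genistein replicate 2 its log2 fold change was -0.32 and it was not called, nor was it after GC correction. KRT19P1, PARP4P2, CBWD6, RAP2C-AS1, TIMM8AP1, RP11-566J3.2 and SNORA73B made up the rest, from -1.95 to -1.54. Of these, CBWD6 was not called without gemcitabine replicate 1 (-0.93) or genistein replicate 2 (-1.37), SNORA73B without gemcitabine replicate 1 (-0.94) and TIMM8AP1 without gemcitabine replicate 2 (-0.96).

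Genes that make ribosomes and genes that regulate splicing had the lowest medians of the programs plotted, on the genistein side. SR proteins and hnRNPs bind pre-mRNA and decide which exons are kept, and CLK kinases phosphorylate SR proteins. Of 30 such genes, 19 were higher with genistein and none with gemcitabine, with a median log2 fold change of -0.49 against -0.005 over all genes tested. SRSF1, a founding SR protein at chr17:56078280-56084707, had 148 and 149 CPM with gemcitabine against 345 and 364 CPM with genistein, a log2 fold change of -1.25 ± 0.085 SE (adjusted p = 2.06e-08). HNRNPH1, which binds G-rich exonic elements, had 203 and 199.7 CPM with gemcitabine against 391.7 and 452 CPM with genistein. HNRNPDL and HNRNPR differed by -0.98 and -0.95, TRA2B by -0.80 and SRSF3 by -0.77. In each of these 6 genes the genistein libraries lay above both gemcitabine libraries. Groups did not overlap in 3742 of the 3747 called genes or in 68.2% of all genes tested, so this adds little to a call. CLK1 and CLK4 had positive values (0.25 and 0.29) without being called, although CLK1 was called without genistein replicate 2 (0.71) and was negative without genistein replicate 1 (-0.099), and SRSF5 and SRSF6 lay at -0.01. Leaving out any one library gave 17 to 19 members higher with genistein, and log2(FPKM + 1) gave 12. SRSF1 shares 32.7% of its exons with another annotated gene on the same strand, and such reads cannot be assigned to one of them.

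Ribosome biogenesis followed the same pattern. Of 30 genes of the MYC network and of nucleolar ribosome assembly, 21 were higher with genistein and 3 with gemcitabine (median -0.52, and 18 to 20 higher with genistein when a library was left out, or 10 on log2(FPKM + 1)). MYC itself, the transcription factor that drives this program, had 159 and 161 CPM with gemcitabine against 278 and 255 CPM with genistein, a log2 fold change of -0.73 ± 0.087 SE (adjusted p = 4.12e-06). UTP20, of the small-subunit processome, had 31.9 and 34.0 CPM with gemcitabine against 65.5 and 68.3 CPM with genistein, and DDX21, a nucleolar RNA helicase, had 151 and 154 CPM with gemcitabine against 265 and 282 CPM with genistein. The nucleolar proteins NPM1 and NCL differed by -0.72 and -0.68, the pseudouridine synthase DKC1 by -0.67, and BOP1 by -0.79. On counts all of these were called. The 3 members on the gemcitabine side were MXD3, MXD4 and MXD1, which encode MAX partners that oppose MYC. MXD3 had 56.9 and 43.5 CPM with gemcitabine against 22.8 and 18.7 CPM with genistein, and MXD4 (0.56) was not called after GC correction or without genistein replicate 2 (0.37). MXD1 lost its call without gemcitabine replicate 1 (0.41), gemcitabine replicate 2 (0.45) or genistein replicate 2 (0.26). The proteins of the ribosome itself had few calls, with 1 of 39 called (RPL15, -0.42) and 4 higher with genistein after GC correction. RPL15 was below the fold threshold without gemcitabine replicate 1 (-0.31) or genistein replicate 1 (-0.39). Of the 39 values 34 were negative, and their median was -0.13, a sign that turned with library size scaling.

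**Figure D1:**
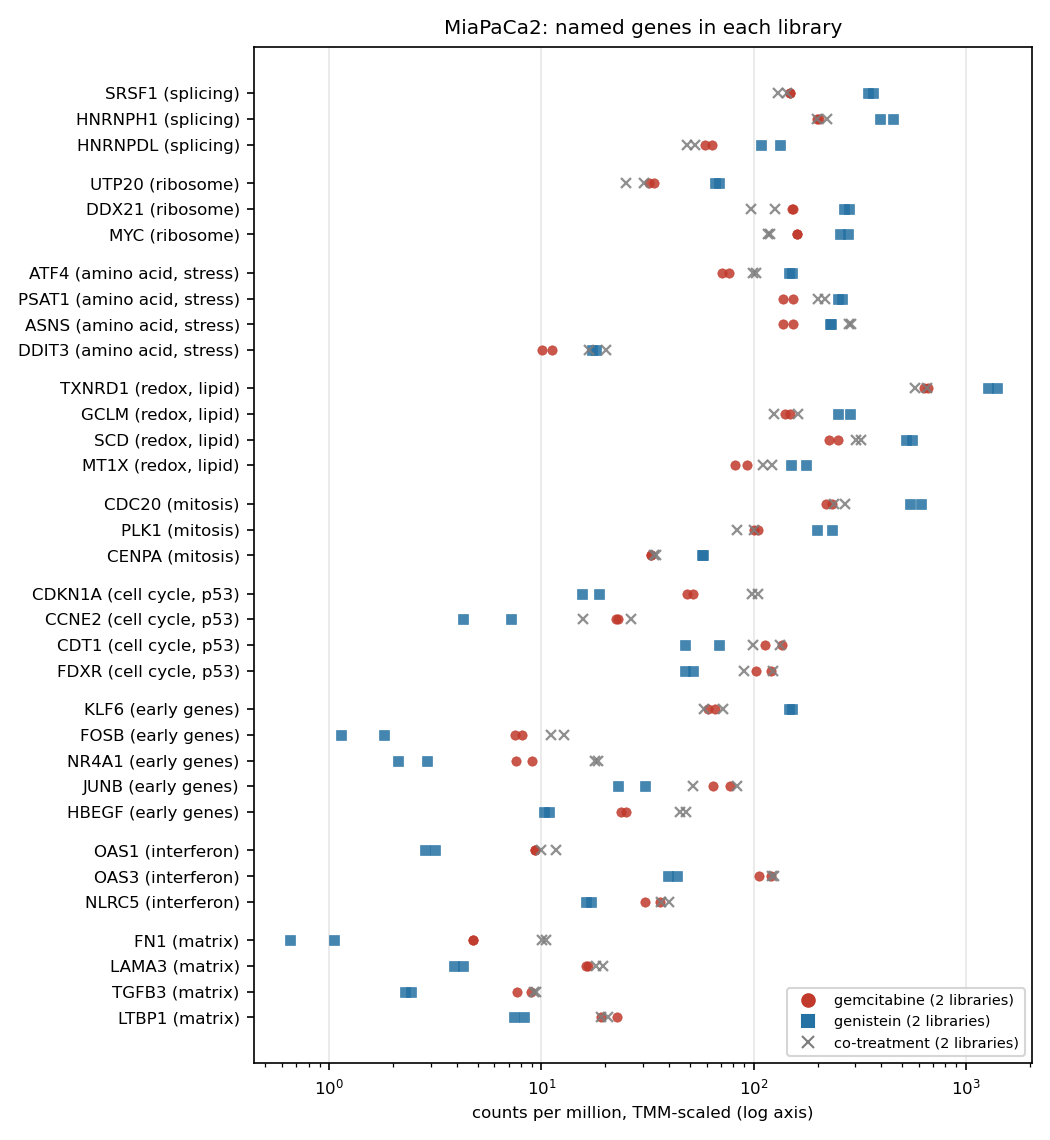
CPM values (TMM-scaled, log axis) of named genes in each MiaPaCa2 library, with the program in brackets. Circles are gemcitabine, squares genistein and crosses co-treatment, with 2 libraries each. The gemcitabine and genistein libraries do not overlap in any gene shown, nor in 68.2% of all genes tested. The co-treatment crosses lie mostly on or beyond the gemcitabine circles, with ASNS, PSAT1 and DDIT3 nearer to genistein.

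Genes for amino acid supply leaned to genistein too. Of 34 genes of amino acid synthesis, uptake and tRNA charging, 15 were higher with genistein and 1 with gemcitabine (median -0.36, or -0.19 on log2(FPKM + 1)). The glutamine and alanine carrier SLC38A2 had 352 and 357 CPM with gemcitabine against 605 and 668 CPM with genistein, a log2 fold change of -0.84 ± 0.084 SE (adjusted p = 6.49e-07). PSAT1, of serine synthesis, had 138 and 154 CPM with gemcitabine against 251 and 260.2 CPM with genistein, and ASNS, asparagine synthetase, had 138 and 153 CPM with gemcitabine against 231 and 229.8 CPM with genistein. Of the called members, 8 charge tRNAs, among them YARS (-0.77) and MARS (-0.68). SLC1A4 was the member on the gemcitabine side (0.45), and it was not called after GC correction. Many of these genes are known targets of ATF4, the transcription factor of the integrated stress response, and ATF4 itself had 70.6 and 76.2 CPM with gemcitabine against 147 and 152 CPM with genistein, a log2 fold change of -1.03 ± 0.093 SE (adjusted p = 2.38e-07).

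The remaining stress genes split. Among 18 genes of the integrated stress response, 5 were higher with gemcitabine and 2 with genistein, the latter being ATF4 and DDIT3 (CHOP), which had 11.2 and 10.0 CPM with gemcitabine against 17.4 and 18.1 CPM with genistein. GDF15, a stress-induced cytokine, had 5.27 and 4.55 CPM with gemcitabine against 1.86 and 1.58 CPM with genistein, VLDLR, a lipoprotein receptor, 17.6 and 16.0 CPM with gemcitabine against 5.82 and 8.05 CPM with genistein, and ATF3, a repressor induced by many stresses, 7.49 and 9.72 CPM with gemcitabine against 2.83 and 4.51 CPM with genistein. After GC correction 8 members were higher with genistein in place of 2, so the count of this list depends on that step. Chaperones of the endoplasmic reticulum were near the background, with 5 of 29 higher with gemcitabine, none with genistein and a median of 0.088 (0.024 after GC correction). DNAJB9 (0.69) and CRELD2 (0.76) were among the 5, and HSPA5, the main chaperone of that compartment, was at 0.09.

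The letters of ATF4 composite elements were looked up in promoters from RefSeq (250 bases before to 50 after the start, GRCh38.p14, found for 9362 of the symbols tested). The element TGATGNAA on either strand occurred in 5 of 16 promoters of the amino acid list and in 1.46% of the promoters of all genes tested, 3.67% of all promoters in the table. ASNS is shown because its promoter holds the element in a gene of this program. Its window lies on the minus strand at chr7:97872423-97872522, with the element in capitals.
ASNS: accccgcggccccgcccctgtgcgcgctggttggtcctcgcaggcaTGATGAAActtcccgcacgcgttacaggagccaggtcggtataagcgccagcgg

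Redox and metal defence genes leaned to genistein. NRF2 is the transcription factor that induces antioxidant enzymes when its inhibitor KEAP1 is modified by electrophiles. Of 26 NRF2 targets and ferritin genes, 9 were higher with genistein and 2 with gemcitabine (median -0.27), and without gemcitabine replicate 1 the 9 became 5. Thioredoxin reductase TXNRD1 had 633 and 662 CPM with gemcitabine against 1265 and 1395 CPM with genistein, a log2 fold change of -1.04 ± 0.082 SE (adjusted p = 5.99e-08). GCLM, of glutathione synthesis, had 140.4 and 148 CPM with gemcitabine against 251 and 285 CPM with genistein, and NQO1, a quinone reductase, 1974 and 2181 CPM with gemcitabine against 3706 and 3566 CPM with genistein. The ferritin light chain FTL had 4045 and 4286 CPM with gemcitabine against 7439.7 and 6822 CPM with genistein. The 2 members on the other side, KEAP1 (0.54) and OSGIN1 (0.51), were not called after GC correction, and OSGIN1 also lost its call without gemcitabine replicate 1 (0.35) or genistein replicate 2 (0.25). HMOX1 was not called (0.35), but was without gemcitabine replicate 2 (0.45) or genistein replicate 1 (0.40). The antioxidant response element TGACNNNGC was found in 4 of 20 promoters of this list and in 15% of the promoters of genes tested. It is shown for GCLM, at chr1:93909411-93909510 on the minus strand of GRCh38.p14, where it reads on the other strand.
GCLM: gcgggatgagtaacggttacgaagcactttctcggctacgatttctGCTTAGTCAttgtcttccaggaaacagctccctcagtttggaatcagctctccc

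Metallothioneins, which bind zinc and copper, had 5 of 10 members higher with genistein and none with gemcitabine, or 3 without genistein replicate 1. MT1X had 81.7 and 92.8 CPM with gemcitabine against 177 and 151 CPM with genistein and MT1E 284 and 289 CPM with gemcitabine against 571 and 492 CPM with genistein, and the zinc exporter SLC30A1 differed by -0.83. Metallothionein genes are near-identical copies, so reads may be divided among them. Cytosolic chaperones leaned in the same direction, with 7 of 19 higher with genistein and 1 (DNAJB4, 0.51) with gemcitabine. The constitutive chaperones HSP90AB1 (-0.72), HSPA8 (-0.61) and HSP90AA1 (-0.59) led, whereas the stress-inducible HSPA1A and HSPA1B were at -0.25 and -0.37 and were called after GC correction. HSPA1B was also called without gemcitabine replicate 2 (-0.47) or genistein replicate 2 (-0.44), and DNAJB4 was not called without gemcitabine replicate 2 (0.35) or genistein replicate 1 (0.37).

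Lipid and sugar metabolism genes differed in part, with 22.6% of the cholesterol and fatty acid list called against 24.3% of all genes tested. Of 31 genes of cholesterol and fatty acid synthesis, 6 were higher with genistein and 1 with gemcitabine (MVD, 0.47, lost after GC correction, at 0.33 without gemcitabine replicate 1 and at 0.27 without genistein replicate 2), and after that correction 10 were higher with genistein. Without genistein replicate 1, 3 were higher with gemcitabine. The desaturase SCD had 227 and 250.1 CPM with gemcitabine against 523 and 557 CPM with genistein, a log2 fold change of -1.18 ± 0.086 SE (adjusted p = 2.83e-08). SREBF1, the transcription factor of fatty acid synthesis, differed by -0.89 and its retention factor INSIG1 by -0.76. Most enzymes of the cholesterol pathway were not called, with HMGCS1 at 0.01 and SQLE at -0.22. The letters TCACNCC of a sterol regulatory element were in 7 of 25 promoters of this list and in 15.7% of those of genes tested. In the hypoxia and glycolysis list 6 of 33 were higher with each drug and 21 were not called. After GC correction 5 were higher with gemcitabine and 9 with genistein. The glycolytic enzymes PKM (-0.94), ENO1 (-0.69), LDHA (-0.60) and GAPDH (-0.45, or -0.37 and not called without genistein replicate 1) were higher with genistein, together with HIF1A (-0.71) and VEGFA (-0.59). Adrenomedullin ADM had 6.79 and 6.44 CPM with gemcitabine against 2.102 and 2.23 CPM with genistein and the prolyl hydroxylase EGLN3 5.21 and 4.92 CPM with gemcitabine against 2.02 and 1.77 CPM with genistein, and NDRG1 (1.05) and EPAS1 (0.79) were on the gemcitabine side too. PKM had 2849.7 and 2938 CPM with gemcitabine against 5796 and 5335 CPM with genistein.

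Called mitotic regulators were mostly on the genistein side. Of 55 genes of mitosis and the spindle, 29.1% were called against 24.3% of all genes tested, 14 higher with genistein and 2 with gemcitabine. Negative values were not particular to this list, as 34 of 39 ribosomal proteins had them, with a median of -0.13. Among the 55 mitotic genes, 45 values were negative and the median was -0.13. Without genistein replicate 1 the median was -0.27 and 21 were higher with genistein, and without genistein replicate 2 the median was -0.075 and 6 were higher with gemcitabine. CDC20, the activator of the anaphase-promoting complex at chr1:43824652-43828874 of GRCh37, had 234 and 219.9 CPM with gemcitabine against 611 and 543 CPM with genistein, a log2 fold change of -1.34 ± 0.088 SE (adjusted p = 1.22e-08). PLK1, the polo-like kinase of mitotic entry, had 104.3 and 100.8 CPM with gemcitabine against 235 and 198 CPM with genistein. The centromeric histone CENPA had 32.9 and 32.8 CPM with gemcitabine against 57.2 and 57.6 CPM with genistein, and KIF20A, AURKA and CCNB1 differed by -0.72, -0.69 and -0.61. Genistein libraries were above gemcitabine libraries in each of these genes, and the drugs also did not overlap in 68.2% of all genes tested. TOP2A, one of the topoisomerase II genes, had 517 and 534 CPM with gemcitabine against 711 and 760.4 CPM with genistein and was the one called gene of 8 topoisomerases and their repair enzymes, of which 3 were called without genistein replicate 1 and 2 without gemcitabine replicate 1. CDK1, the kinase of mitosis, was on the gemcitabine side with 94.0 and 107.3 CPM with gemcitabine against 52.8 and 74.7 CPM with genistein, and SPC24 (0.56) joined it. FOXM1, MKI67 and BIRC5 lay between -0.08 and 0.09 and were not called.

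Promoters of many mitotic genes hold a cell cycle genes homology region (CHR), the letters TTTGAA on either strand, near CCAAT boxes. The CHR letters were in 32 of 45 promoters of the mitosis list and in 9.14% of the promoters of genes tested (15.4% of all promoters), and CCAAT in 35 of the 45 and in 36.3%. Among the mitotic members higher with genistein, 8 of 11 promoters held the CHR letters and 11 of 11 held CCAAT. The CHR letters were in 11.7% of the promoters of all genes higher with genistein and in 6% of those higher with gemcitabine. The median exon GC content of these sides also differed, at 45.4% and 56.6%. Whether base composition bears on the share of these AT-rich letters was not tested. The windows of the 3 most different mitotic genes are shown with the CHR letters in capitals. They lie on the plus strand of GRCh38.p14 at chr1:43358869-43358968 (CDC20), chr16:23678813-23678912 (PLK1) and chr2:26785991-26786090 (CENPA), and the letters begin at positions -65, -29 and -18 from the start. CDC20 holds the letters 2 times in its 300 bases, and the other match lies outside the window shown. A match describes the sequence and is not evidence that a factor binds.
CDC20: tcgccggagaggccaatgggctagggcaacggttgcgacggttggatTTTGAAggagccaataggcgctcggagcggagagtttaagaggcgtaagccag
PLK1: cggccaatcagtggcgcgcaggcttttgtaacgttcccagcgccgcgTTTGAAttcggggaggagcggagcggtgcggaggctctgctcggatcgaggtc
CENPA: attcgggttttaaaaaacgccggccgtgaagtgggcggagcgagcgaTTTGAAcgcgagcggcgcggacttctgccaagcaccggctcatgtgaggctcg

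Regulators of the G1/S transition leaned to gemcitabine. Of 28 cyclins, CDK inhibitors and E2F family genes, 12 were higher with gemcitabine and 4 with genistein (13 and 1 with library size alone). CDKN1A, which encodes the CDK inhibitor p21, had 48.4 and 51.9 CPM with gemcitabine against 18.6 and 15.5 CPM with genistein, a log2 fold change of 1.58 ± 0.12 SE (adjusted p = 5.56e-08). CDKN1C, encoding p57, had 3.69 and 4.31 CPM with gemcitabine against 0.808 and 1.02 CPM with genistein. Cyclin E2, the partner of CDK2 at S-phase entry, had 23.0 and 22.5 CPM with gemcitabine against 4.28 and 7.21 CPM with genistein, although CCNE2 overlaps INTS8 on the opposite strand over 37% of its exons. The late repressor E2F7 and the activator E2F2 differed by 1.05 and 1.01. On the genistein side were cyclin D1 (-0.52) and RBL1 (-0.86), E2F5 (-0.58) and E2F4 (-0.43), the pocket protein p107 and the E2Fs that partner it. E2F4 was not called without gemcitabine replicate 2 (-0.38) or genistein replicate 1 (-0.38), nor E2F5 without gemcitabine replicate 1 (-0.41) or genistein replicate 2 (-0.52). The E2F letters TTTCGCG were in 6 of 20 promoters of this list and in 2.29% of those of genes tested. E2F2 is shown, at chr1:23531238-23531337 on the minus strand of GRCh38.p14.
E2F2: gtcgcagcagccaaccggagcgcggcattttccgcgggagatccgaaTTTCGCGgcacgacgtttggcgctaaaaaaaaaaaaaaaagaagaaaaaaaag

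DNA replication and repair genes had positive medians. Of 52 replication licensing and fork genes, 19.2% were called, below the 24.3% of all genes tested. Higher with gemcitabine were 9 and with genistein 1, with 38 positive values and a median of 0.16. With library size alone 20 and none were, with a median of 0.29, and on log2(FPKM + 1) 15 and none, with a median of 0.35. The licensing factor CDT1 had 136 and 113.3 CPM with gemcitabine against 68.7 and 47.4 CPM with genistein, a log2 fold change of 1.15 ± 0.13 SE (adjusted p = 2.95e-06). GINS3 and LIG1 differed by 0.65 and 0.63, while POLD1 (0.76) was at 0.20 and not called once the GC trend was removed. Among 36 genes of the Fanconi pathway and homologous recombination, 5 were higher with gemcitabine and 1 (ATR, -0.46, or -0.34 and not called without genistein replicate 2) with genistein (median 0.12, or 0.05 without genistein replicate 1), below the 24.3% of all genes. BRCA2 was sparse and its replicates far apart, with 9.89 and 5.77 CPM with gemcitabine against 1.54 and 4.37 CPM with genistein, and the DESeq2 test did not call it, and RAD51AP1 had 30.5 and 33.2 CPM with gemcitabine against 16.5 and 21.7 CPM with genistein. Nucleotide supply had 24.1% of 29 genes called, near the 24.3% of all genes, with 2 on the gemcitabine side. Among these 2 was RRM1, the large subunit of ribonucleotide reductase, with 303 and 329 CPM with gemcitabine against 201 and 226 CPM with genistein. On the genistein side were 5 (8 after GC correction or without gemcitabine replicate 2), led by the purine enzymes ADSL (-0.77), PPAT (-0.64) and IMPDH2 (-0.61) and the nucleotidase NT5C3A (-0.72). DCK, the kinase that activates gemcitabine, was at 0.40 and was called after GC correction and without genistein replicate 1 (0.48).

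Known p53 target genes leaned to gemcitabine. Of 26 tested, 30.8% were called, against 24.3% of all genes tested. Higher with gemcitabine were 8 and with genistein none (median 0.18, or 0.28 without genistein replicate 2). Besides CDKN1A and GDF15 they included PHLDA3, which had 5.97 and 6.07 CPM with gemcitabine against 2.83 and 1.86 CPM with genistein, FDXR, a mitochondrial reductase with 120.2 and 102.1 CPM with gemcitabine against 51.7 and 47.3 CPM with genistein, and PMAIP1 (NOXA) with 15.6 and 16.2 CPM with gemcitabine against 9.62 and 7.96 CPM with genistein. MDM2, DDB2 and ZMAT3 had values of 0.17, 0.18 and 0.16 and were not called, BAX was at -0.13, and 3 members were called higher with genistein after GC correction. Apoptosis genes had 9 of 34 on the gemcitabine side (5 without gemcitabine replicate 1) and 1, MCL1 (-0.50), on the genistein side, which became 4 after GC correction. BIK, a BH3-only killer protein, had 7.37 and 7.04 CPM with gemcitabine against 1.62 and 2.56 CPM with genistein and led them. In all, 29.4% of the 34 apoptosis genes were called, near the 24.3% of all genes tested.

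Immediate early and growth factor genes were divided. Of 30 AP-1 and immediate early genes, 8 were higher with gemcitabine and 3 with genistein (median 0.35), and after GC correction these were 6 and 5 (median 0.063). FOSB had 8.07 and 7.47 CPM with gemcitabine against 1.13 and 1.81 CPM with genistein, a log2 fold change of 2.34 ± 0.27 SE (adjusted p = 2.95e-06). The orphan receptor NR4A1 had 9.01 and 7.59 CPM with gemcitabine against 2.102 and 2.88 CPM with genistein, and JUNB had 77.5 and 64.3 CPM with gemcitabine against 30.6 and 23.0 CPM with genistein. ARC and FOS differed by 1.85 and 0.88. NR4A2, NR4A3, EGR3 and EGR4 had log2 fold changes from 1.99 to 3.27 but were not called. KLF6, a zinc finger factor, was opposite and clear, with 65.9 and 60.8 CPM with gemcitabine against 146 and 152 CPM with genistein, a log2 fold change of -1.23 ± 0.094 SE (adjusted p = 5e-08).

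Feedback inhibitors of receptor kinases and ERK were divided. Sprouty proteins and ERRFI1 dampen signalling from growth factor receptors and are themselves induced by it. SPRY4 had 211 and 207 CPM with gemcitabine against 414 and 409.6 CPM with genistein and ERRFI1 430.2 and 454 CPM with gemcitabine against 737 and 798 CPM with genistein, and SPRY1 (-0.73), SPRY2 (-0.66) and EPHA4 (-0.90) were on the same side. Of 20 ERK feedback genes 7 were higher with genistein and 4 with gemcitabine, 9 had positive values and the median was -0.076. The median turned to 0.052 with library size alone, with 4 called on each side, and to 0.065 on log2(FPKM + 1). None of those 4 (DUSP8, DUSP2, IER3 and DUSP1) was called after GC correction. Without genistein replicate 2 only IER3 of the 4 was called, with DUSP8 at 0.48, DUSP2 at 0.43 and DUSP1 at 0.39, and DUSP8 (0.75) and DUSP1 (0.41) also lost their calls without gemcitabine replicates 1 and 2 respectively. The EGFR ligands AREG and HBEGF were on the gemcitabine side together with the receptor ERBB3 (0.95), while EREG was at -0.65. HBEGF had 23.6 and 25.1 CPM with gemcitabine against 10.8 and 10.3 CPM with genistein. AREG, which the DESeq2 test did not call, had 1.81 and 1.70 CPM with gemcitabine against 0.970 and 0.465 CPM with genistein. Its FPKM values were at least 76.3 with gemcitabine against at most 68.3 with genistein. For AREG the 2 deposited measures thus did not match, and its call rested on few counts. Without genistein replicate 2 AREG was at 0.82 and not called. In all, 4 of 11 genes of the EGFR family were higher with gemcitabine and 2 with genistein, and EGFR itself (-0.23) was not called.

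NF-kB genes had 9 of 25 members higher with gemcitabine and 2 with genistein (median 0.29, or 0.196 without genistein replicate 2). After GC correction 6 and 4 were, with a median of 0.081. The noncanonical subunit RELB had 36.3 and 32.7 CPM with gemcitabine against 22.5 and 14.3 CPM with genistein, a log2 fold change of 0.99 ± 0.16 SE (adjusted p = 7.28e-05). REL and the inhibitor TNFAIP3 differed by 0.89 and 0.88, and the subunits RELA and NFKB1 were level (-0.06 and 0.06). NFKB2 (0.53) was at 0.13 after GC correction, and REL was at 0.70 and not called without gemcitabine replicate 1. Chemokines went both ways, with IL8 at 0.52 and CXCL1 at -0.67.

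Interferon-stimulated and antigen presentation genes leaned to gemcitabine. Of 33 interferon-stimulated genes, 13 were higher with gemcitabine and none with genistein (median 0.35, and 9 to 12 higher with gemcitabine when a library was left out). Without genistein replicate 2, 2 were higher with genistein. OAS1 and OAS3 make the messenger that activates RNase L. OAS3 had 120.4 and 105.4 CPM with gemcitabine against 43.3 and 39.5 CPM with genistein, a log2 fold change of 1.45 ± 0.11 SE (adjusted p = 2.83e-08), and OAS1 had 9.30 and 9.29 CPM with gemcitabine against 2.83 and 3.16 CPM with genistein. MX1 was sparse at 2.75 and 1.94 CPM with gemcitabine against 1.37 and 0.791 CPM with genistein, and the DESeq2 test did not call it, nor did the fit without gemcitabine replicate 1 (0.97) or genistein replicate 2 (0.73). IFIT1 (-0.07), IFIT2 (-0.01) and IFIT3 (0.14) were not called, and 3 members, the IFITM1, IFITM2 and IFITM3 genes, were called higher with genistein after GC correction, IFITM3 (-0.39) also without gemcitabine replicate 1 (-0.46) or genistein replicate 2 (-0.57). All 16 genes of MHC class I presentation had positive values, and 7 were called. NLRC5, the transactivator of class I genes, had 36.3 and 30.8 CPM with gemcitabine against 17.1 and 16.1 CPM with genistein. HLA-B had 525 and 499 CPM with gemcitabine against 358 and 338 CPM with genistein and the immunoproteasome subunit PSMB9 41.6 and 40.1 CPM with gemcitabine against 28.4 and 27.7 CPM with genistein, while B2M was at 0.03. Reads of HLA genes can be divided among close homologues, and HLA-C (0.59) was not called after GC correction.

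Extracellular matrix genes showed the largest median toward gemcitabine of the 35 programs plotted, at 0.62. Of 31 collagen, integrin and laminin genes, 14 were higher with gemcitabine and none with genistein, and 13 to 17 with a library left out. After GC correction the counts were 10 and 1 and the median 0.38, below the 0.40 of the EGFR family. Fibronectin FN1 had 4.74 and 4.74 CPM with gemcitabine against 1.05 and 0.651 CPM with genistein, a log2 fold change of 2.54 ± 0.32 SE (adjusted p = 8.57e-06). The laminin chain LAMA3 had 16.6 and 16.2 CPM with gemcitabine against 4.28 and 3.86 CPM with genistein, and COL1A1 3.69 and 3.16 CPM with gemcitabine against 0.889 and 0.465 CPM with genistein. COL7A1 and COL5A1 differed by 1.32 and 1.08. The integrin subunits ITGA2, ITGB1 and ITGA3 were negative (-0.40, -0.37 and -0.35) and were not called. Single libraries mattered here, as ITGA2 was at 0.44 without genistein replicate 2, ITGA3 was called at -0.45 without the same library and after GC correction, and ITGB1 at -0.43 without genistein replicate 1. The fibroblast markers DCN and LUM were at 0 counts in all 4 libraries and PDGFRB at 0 to 3.

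TGF-beta genes went both ways. Of 23, 7 were higher with gemcitabine and 5 with genistein, or 4 and none on log2(FPKM + 1). The ligands TGFB3, with 7.66 and 8.93 CPM with gemcitabine against 2.43 and 2.28 CPM with genistein, and TGFB1 (0.87), the latent binding protein LTBP1, with 19.1 and 22.8 CPM with gemcitabine against 7.44 and 8.24 CPM with genistein, and the inhibitory SMAD7 (1.39) were on the gemcitabine side. Target genes were on both sides, with TGFBI (0.98), SNAI1 (0.88) and SKIL (0.64) higher with gemcitabine, and PMEPA1 (-0.62) and ID3 (-0.43) higher with genistein. SMAD4 (-0.44) and LTBP2 (-0.76) were higher with genistein too. Calls lost with 1 library left out were SKIL (0.34) and SMAD4 (-0.40, lost after GC correction too) without genistein replicate 1 and ID3 (-0.30 and -0.30) without gemcitabine replicate 2 or genistein replicate 1. YAP target genes had 5 of 17 on the gemcitabine side (3 without gemcitabine replicate 1), among them CTGF (0.70) and F3 (0.998, or 0.86 and not called without gemcitabine replicate 1), and 2 on the genistein side, while CYR61 was at -0.01.

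Receptors that bear on genistein as an estrogen-like molecule were also compared. ESR1, ESR2 and PGR had too few counts to be tested. GPER1, the membrane estrogen receptor, had 3.57 and 3.83 CPM with gemcitabine against 1.70 and 1.35 CPM with genistein, a log2 fold change of 1.30 ± 0.28 SE (adjusted p = 0.00121). GREB1, a known estrogen-responsive gene, had 5.44 and 6.497 CPM with gemcitabine against 2.91 and 2.33 CPM with genistein, and the vitamin D receptor VDR 15.1 and 13.9 CPM with gemcitabine against 8.41 and 8.19 CPM with genistein. Of 19 nuclear receptor and estrogen signalling genes, 4 were higher with gemcitabine and 5 with genistein (median 0.058), or 4 and 8 after GC correction (median -0.26). The genistein side held the retinoid partner RXRA (-0.42, not called at -0.39 without gemcitabine replicate 2 or at -0.35 without genistein replicate 1), SP1 (-0.50) and NR2F2 (-0.66). Of the 15 genes that the study named for drug response, chosen there on these samples and so not independent of them, 7 were higher with gemcitabine and 3 with genistein (8 and 1 with library size alone). MUC1 had 6.03 and 6.19 CPM with gemcitabine against 3.88 and 4.09 CPM with genistein and was not called after GC correction or with any library left out. The transporters ABCC1 and ABCC3 (-0.24 and -0.36), ITPR1 (0.31), CASP9 (0.27) and TM4SF1 (-0.15) were not called, although ABCC3 was without genistein replicate 2 (-0.41) and after GC correction. In the aryl hydrocarbon receptor pathway 3 of 10 genes were higher with gemcitabine, led by ALDH3A1 (1.20), and NQO1 alone with genistein, and CYP1A1 (0.38) was not called except without gemcitabine replicate 2 (0.51) or genistein replicate 2 (0.46).

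In several programs the share of called members was below or near the 24.3% of all genes tested. It was 3.03% for the nuclear respiratory chain, 9.09% for calcium genes and 15.2% for lysosome and autophagy genes. Mitochondrially encoded genes and replication-dependent histones each had 23.1%. The nuclear respiratory chain had 1 of 33 genes called (COX5B, 0.61) and a median of 0.007, and 2 more were higher with genistein after GC correction (median -0.031). Calcium release and pump genes had 1 of 22 in each direction, with 3 higher with genistein without genistein replicate 1. Lysosome and autophagy genes had 5 of 33 higher with gemcitabine, led by ULK1 (1.13), and none with genistein. After GC correction 2 were higher with gemcitabine and 3 with genistein, and 3 were higher with gemcitabine without gemcitabine replicate 1 or without genistein replicate 2. Of the 13 mitochondrially encoded genes, MT-ND5 (0.41, or 0.28 and 0.32 and not called without gemcitabine replicate 2 or genistein replicate 1) was higher with gemcitabine and MT-CYB (-0.63) and MT-ND6 (-0.81) with genistein. Replication-dependent histone genes had 3 of 13 tested members higher with genistein, HIST1H2AC with 16.0 and 17.3 CPM with gemcitabine against 31.1 and 29.1 CPM with genistein, while HIST1H2BJ (-0.98) and HIST1H1B (-2.31, at 2 to 20 counts) lost their calls in the DESeq2 test. Both also lost them without gemcitabine replicate 1 (-1.14 and -2.53) or 2 (-0.81 and -2.09), and HIST1H2BJ without genistein replicate 2 (-0.92). These transcripts mostly lack poly-A tails, so a poly-A library samples them poorly. Of the genes that mark the line itself, 2 of 3 tested keratins and 1 of 4 tested quasimesenchymal markers, vimentin, were higher with genistein. KRT19 had 72.6 and 71.7 CPM with gemcitabine against 209 and 175 CPM with genistein. VIM had 4997 and 5093 CPM with gemcitabine against 8505 and 8086 CPM with genistein. The quasimesenchymal markers ZEB1 (-0.44), SNAI2 (-0.10) and AXL (-0.06) were not called.

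**Figure D2:**
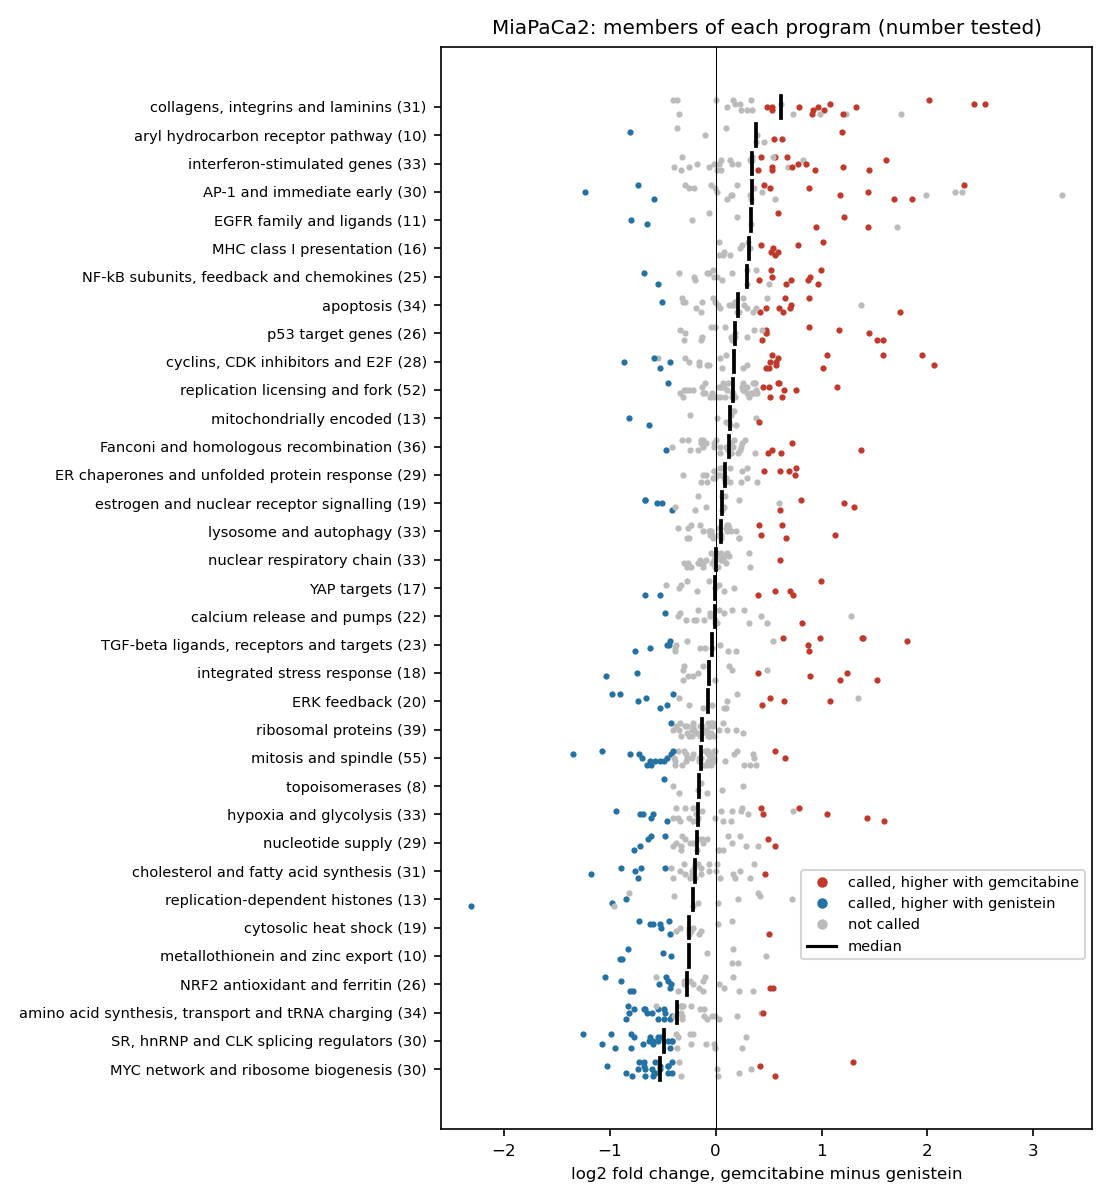
Log2 fold change, gemcitabine minus genistein, of every tested member of 35 gene programs in MiaPaCa2, with the number tested in brackets. Colored points were called, gray points were not, and the black bar is the median, which runs from -0.52 for the MYC network and ribosome biogenesis to 0.62 for collagens, integrins and laminins.

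Cells given both drugs at the same doses were placed between the single drugs as a description, with no test. For each called gene a position was calculated, 0 at the mean log2 level with genistein and 1 at that with gemcitabine. The median position of the 2 co-treatment libraries was 1.04 over the 3747 genes, 87.9% of the genes lay nearer to gemcitabine, 53.8% lay beyond it and 2.14% lay beyond genistein. The genes were chosen on the same gemcitabine and genistein libraries, and the co-treatment libraries had no part in the choice. Programs differed in their median position. Called ribosome biogenesis genes lay at 1.44, AP-1 genes at 1.32 and splicing regulators at 1.23, whereas NRF2 targets lay at 0.76 and metallothioneins at 0.55. CDKN1A had 97.9 and 104.5 CPM with both drugs, beyond the 48.4 and 51.9 CPM of gemcitabine alone. ASNS had 288 and 280.3 CPM with both drugs, above either drug alone, and PSAT1 216 and 202 CPM, between them. DDIT3 (20.03 and 16.7 CPM) was at the genistein level.

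**Figure D3:**
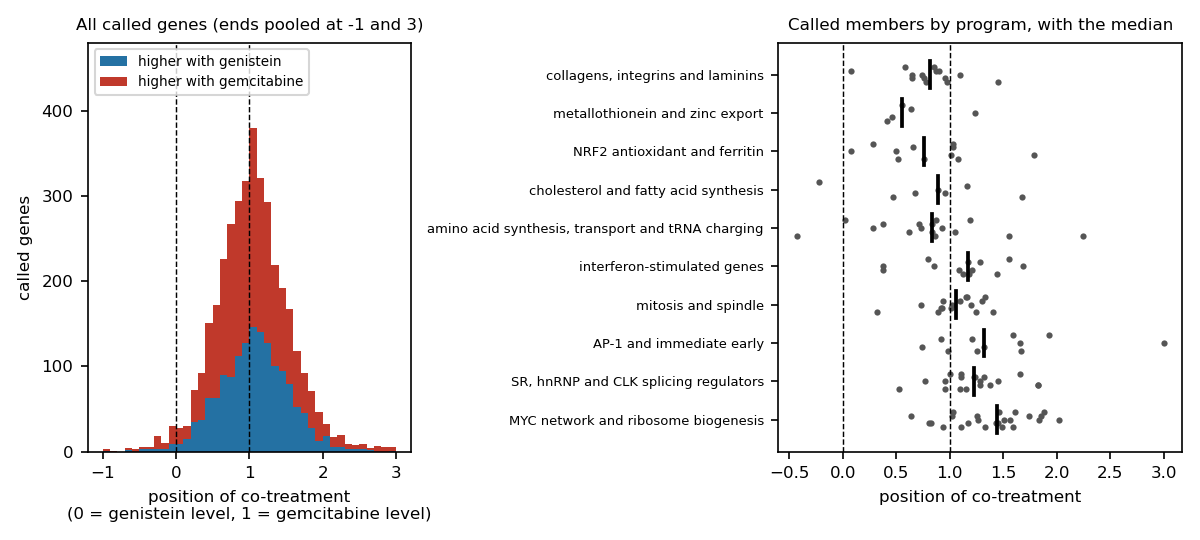
Position of MiaPaCa2 co-treatment between the drugs for called genes, where 0 is the genistein and 1 the gemcitabine level. The left panel counts all 3747 called genes (values past the ends are pooled at -1 and 3), and the right panel shows called members of 10 programs with their median, from 0.55 for metallothionein and zinc export to 1.44 for the MYC network and ribosome biogenesis.

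The same comparison was made in PANC1, a second pancreatic carcinoma line given the same doses, with 4 libraries that share no sample with MiaPaCa2. In PANC1, 4026 of 16022 genes were called (25.1%), 14.8% higher with gemcitabine and 10.3% higher with genistein, and 1238 were called when all 8 PANC1 libraries shared one model. Of the MiaPaCa2 calls tested in PANC1, 72.2% had the same sign there, against 61.9% of all genes tested in both. Both lines called 1234 genes, which is 32.9% of the MiaPaCa2 and 30.7% of the PANC1 calls, 1072 of them in the same direction (694 higher with gemcitabine and 378 with genistein). The difference between the drugs itself differed between the lines for 3428 of 17186 genes (19.9%) in a model of the 8 libraries, at an adjusted p of at most 0.05. That count rested on single libraries, being 2188 without MiaPaCa2 gemcitabine replicate 2, 2056 without MiaPaCa2 genistein replicate 2, and 1896 and 1938 without PANC1 genistein replicates 1 and 2.

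Splicing and ribosome biogenesis genes leaned to genistein in MiaPaCa2 and not in PANC1. In PANC1, 1 of 30 splicing regulators was higher with genistein and 5 with gemcitabine (median 0.082), and of 30 ribosome biogenesis genes 2 were higher with genistein and 9 with gemcitabine (median 0.19). The difference differed between the lines for 21 and 22 of them, and was the lower in MiaPaCa2 for 21 and 20. HNRNPH1 was at 0.41 in PANC1 against -1.07 in MiaPaCa2 (difference -1.47, adjusted p = 4.46e-06), and MYC at 0.34 against -0.73 (difference -1.06, adjusted p = 8.45e-05). Of the 52 replication genes, 35 were higher with gemcitabine in PANC1 against 9 in MiaPaCa2 (20 with library size alone), and 26 differed between the lines. In PANC1 KLF6 and DDIT3 had the opposite direction, at 1.53 and 1.19, and both differences between the lines passed (adjusted p = 5.07e-09 and 6.47e-06). CDKN1A separated the drugs more in MiaPaCa2 (1.58 against 0.36, adjusted p = 0.000114), and so did LAMA3 (2.02 against 0.28, adjusted p = 0.000299) and OAS3 (1.45 against 0.46, adjusted p = 0.000185). Of the early genes, 16 of 27 tested in PANC1 were higher with gemcitabine and none with genistein there. The difference between the lines passed for 15 members of this list, with 13 lower and 2 higher in MiaPaCa2. FOS was at 2.46 and ATF3 at 2.49 in PANC1 (adjusted p = 0.00923 and 0.00367), while the 2 were NR4A2, at 0.041 and with 16 and 16 counts against 0 and 5 in MiaPaCa2, and IER3, at 0.014 in PANC1 (adjusted p = 0.0128 and 0.0108).

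Amino acid genes had a median of -0.38 in PANC1, with 15 of 34 higher with genistein, and 13 of the 34 differed between the lines. Among these 13, SLC38A2 was at -0.071 in PANC1 (adjusted p = 0.000413). TXNRD1 was at -1.18, SCD at -1.43, CDC20 at -1.06, PLK1 at -0.97, CCNE2 at 2.46 and FOSB at 2.42 in PANC1. For these 6 genes the difference between the lines did not pass the threshold. The largest such difference was -0.50 ± 0.30 SE for CCNE2, and at that SE it could not be told from none. Smaller differences did pass for genes with a smaller SE, such as HSPA5 (0.31 ± 0.084 SE). Other members of their lists did differ, against 19.9% of all genes. The difference passed for 14 of 26 NRF2 and ferritin genes and 8 of 31 cholesterol and fatty acid genes, all higher in MiaPaCa2. In PANC1 the medians of these 2 lists were -0.70 and -0.48. It passed for 17 of 55 mitotic genes (4 higher and 13 lower in MiaPaCa2) and 9 of 28 cyclin, CDK inhibitor and E2F genes (3 higher and 6 lower).

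**Figure D4:**
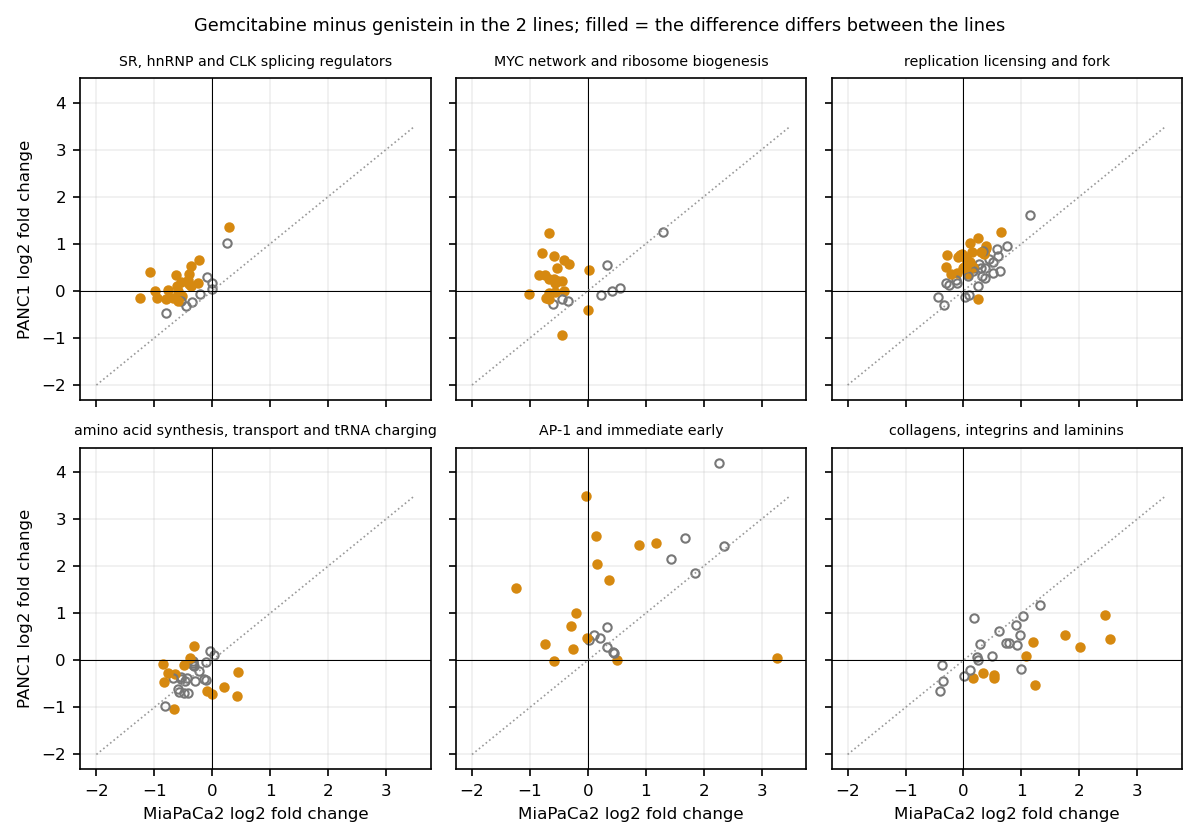
Log2 fold change, gemcitabine minus genistein, in MiaPaCa2 (horizontal) and PANC1 (vertical) for members of 6 programs. Filled points differ between the lines at an adjusted p of at most 0.05, and the dotted line marks equal values. Median values of splicing regulators and ribosome biogenesis genes are -0.49 and -0.52 in MiaPaCa2 and 0.082 and 0.19 in PANC1.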

How the data were processed

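RNA was sequenced from 4 MiaPaCa2 libraries, 2 given gemcitabine and 2 given genistein, with co-treatment and PANC1 libraries used beside them. Poly-A RNA had been made into stranded libraries and read as single 50-base reads. The authors aligned them to GRCh37 with TopHat 2.0.4, removed multiple alignments with Picard 1.29, and deposited gene counts from HTSeq 0.6.1 and FPKM values from Cufflinks 2.1.1. The annotation release and the strand setting are not given in the sources used here. Multiply aligned reads were removed, so copies of a gene can be undercounted.

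Counts were scaled by TMM and fitted with limma-voom (limma 3.58.1, edgeR 4.0.16, R 4.3.3) on the 4 libraries alone after removal of low-count genes, and p-values were adjusted by Benjamini-Hochberg over all genes tested. A call required all of the following, namely an adjusted p no higher than 0.05, a log2 difference of 0.4 or more in size, and a deposited FPKM averaging over 1 with one drug or the other. PANC1 was fitted alike, and the difference between the lines as an interaction over 8 libraries. Co-treatment position used log2 CPM with a prior count of 0.5. For the GC check, a smooth curve (span 0.3) of each library's deviation on exon GC content was removed. Alternatives were edgeR, DESeq2 1.42.0, other scalings and filters, log2(FPKM + 1), a replicate block and leaving out each library. On simulated counts of this comparison, 200 of 15448 genes were changed. Of these, 53% of changes of 0.6, 77.6% of 1 and 98.5% of 2 on the log2 scale passed the adjusted p and fold criteria. The FPKM criterion was not applied there. Far fewer genes were changed than the 3747 called in the data, so these shares need not hold for the comparison itself.

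The genes named were the 12 most different in each direction with a mean of at least 1 CPM and groups that did not overlap, members of the gene lists (the called ones with the largest change first), genes the study named and cell type markers. The comparison and the lists were chosen with earlier results of these data known. Some list members are counted but not reported by name here. No set test was run, so lists are described by counts and medians beside those of all genes.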

Additional observations from a re-analysis of the deposited data

Results flagged for a closer look

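The comparison of gemcitabine with genistein was itself compared between the cell lines. This covered 216 of the genes named above, all tested in each line alone. The genes listed are those of the 216 for which the difference between MiaPaCa2 and PANC1 passed an adjusted p of 0.05 in limma-voom. Each value below is the log2 fold change (gemcitabine minus genistein) in MiaPaCa2 minus that in PANC1, from a model of 8 libraries with 2 per group. Over all 17186 genes 19.9% passed, and most of the genes named were chosen for a difference in MiaPaCa2. Their causes were not tested. Among splicing regulators the differences were HNRNPH1 -1.47, SRSF1 -1.09, CLK4 -1.05, HNRNPDL -0.97, HNRNPR -0.80, SRSF3 -0.77 and TRA2B -0.62. For MYC and ribosome genes they were BOP1 -1.58, DDX21 -1.18, MYC -1.06, UTP20 -0.95, DKC1 -0.62, NPM1 -0.57 and NCL -0.51. Amino acid and stress response genes differed by DDIT3 -1.93, ATF3 -1.31, SLC38A2 -0.76, YARS -0.50, ATF4 -0.42, HSPA5 0.31, ASNS 0.38, SLC1A4 0.70, GDF15 1.289 and VLDLR 1.76. The values for redox, metal, chaperone and aryl hydrocarbon genes were SLC30A1 -0.62, HSP90AA1 -0.48, FTL 0.40, NQO1 0.43, KEAP1 0.57, HMOX1 0.66, OSGIN1 0.93 and CYP1A1 1.06. Among lipid, glycolysis and mitochondrial genes the differences were HIF1A -0.80, VEGFA -0.45, PKM -0.43, INSIG1 0.43, COX5B 0.51, MT-CYB 0.57, ADM 0.92, EPAS1 1.11, NDRG1 1.18 and EGLN3 1.88. For mitosis and topoisomerase genes they were KIF20A 0.44 and SPC24 0.51. Cell cycle, replication, repair and nucleotide genes differed by ATR -1.06, RBL1 -1.03, NT5C3A -0.996, RAD51AP1 -0.82, PPAT -0.65, GINS3 -0.60, CCND1 -0.48, E2F2 -0.42, CDKN1A 1.23 and CDKN1C 1.797. The values for p53 and apoptosis genes were MCL1 -0.58. Among early genes and ERK, EGFR and NF-kB genes the differences were DUSP8 -3.77, KLF6 -2.75, IL8 -2.37, EPHA4 -2.08, FOS -1.56, SPRY2 -0.93, TNFAIP3 -0.88, EREG -0.87, ERRFI1 -0.49, CYR61 -0.46, IER3 0.51, DUSP1 0.54, ERBB3 1.26 and NR4A2 3.11. For interferon and MHC class I genes they were HLA-C 0.52, HLA-B 0.64, PSMB9 0.92, OAS3 1.001, NLRC5 1.103, MX1 1.40 and OAS1 1.51. Matrix, TGF-beta and YAP genes differed by ID3 -1.35, PMEPA1 -0.73, LTBP2 -0.71, CTGF -0.63, TGFB1 0.69, SNAI1 0.69, COL5A1 1.004, TGFBI 1.19, LTBP1 1.20, TGFB3 1.28, COL1A1 1.47, SMAD7 1.57, LAMA3 1.75 and FN1 2.08. The values for receptor, drug response, calcium, lysosome and histone genes were NR2F2 -0.61, RXRA -0.59, SP1 -0.46, ABCC1 0.54, ABCC3 0.59, ITPR1 0.59, GPER1 1.05 and HIST1H2AC 1.18. Among the leading genes and markers the differences were TIMM8AP1 -2.35, PARP4P2 -1.86, PDE5A -1.83, KRT19P1 -1.37, KRT19 -1.01, H1F0 -0.36, VIM -0.35, RASD1 1.63, ACSL6 2.01, SCN4B 2.07, ADAMTS10 2.13, RGCC 2.21, CACNA1G 3.03, HTR1D 3.19, TMPRSS2 3.37 and EFEMP2 3.47.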

How the results depend on the processing

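Of 2260 comparisons of 226 of the named genes with 10 other settings, 2079 kept their direction and their side of the threshold. A call was lost in 120 and gained in 29, and 32 changed sign. Leaving out 1 library gave 821 of 902 unchanged, 50 lost, 13 gained and 18 of changed sign. All but ATR and MVD among the sign changes were genes not called. The values that changed sign were ATR 0.089, BAX 0.039, BIRC5 0.061, CYR61 0.13, DCK -0.26, HSPA1A 0.19, HSPA1B 0.10, IFIT1 0.047, IFIT2 0.11, MDM2 -0.10, MKI67 0.13, SRSF5 0.089 and SRSF6 0.20 on log2(FPKM + 1). Further ones were BAX 0.0038, BIRC5 0.13, CYR61 0.12, IFIT1 0.064, IFIT2 0.12, MKI67 0.046, RELA 0.069, SRSF5 0.12 and SRSF6 0.12 with library size alone. They were FOXM1 -0.016, IFIT2 0.029, MVD -0.0035 and SRSF6 0.045 after GC correction. Further ones were FOXM1 -0.015, IFIT2 0.021, MVD -0.011 and SRSF6 0.043 after GC correction with the replicate block. They were HMGCS1 -0.0081 with no low-count filter. Further ones were HMGCS1 -0.0024 with all 8 libraries of the line. With a library left out the ranges that crossed 0 were B2M -0.052 to 0.12, BIRC5 -0.092 to 0.099, CLK1 -0.099 to 0.71, CYR61 -0.035 to 0.018, HMGCS1 -0.099 to 0.13, IFIT1 -0.19 to 0.028, IFIT2 -0.057 to 0.047, ITGA2 -0.97 to 0.44, MKI67 -0.19 to 0.023, NFKB1 -0.017 to 0.15, RELA -0.23 to 0.067, SRSF5 -0.11 to 0.098 and SRSF6 -0.053 to 0.025. Of 504 list medians, 31 changed sign, in 9 lists. Beyond the spread between replicates these were 4, namely ERK feedback (0.052 with library size alone and 0.065 on log2(FPKM + 1)), hypoxia and glycolysis (0.0099 on log2(FPKM + 1)) and ribosomal proteins (0.0057 with library size alone). The other 27 were in 6 lists whose reported medians ran from -0.057 to 0.058. Among them were the integrated stress response (0.072 with library size alone and 0.067 on log2(FPKM + 1)), calcium genes (0.121 and 0.170), YAP targets (0.124 and 0.129), TGF-beta genes (0.101 and 0.043) and nuclear receptors (-0.262 after GC correction), and the nuclear respiratory chain was the last (-0.031 after GC correction).

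The 3747 MiaPaCa2 calls became 1993 on log2(FPKM + 1) (77.2% higher with gemcitabine), which holds smaller changes for low genes by construction, and 807 when a log2 difference of 1 or more was required. DESeq2 gave 2840 and edgeR 3790, and leaving out 1 library 2720 to 3930. GC correction kept 76.4% and log2(FPKM + 1) 45.0% of the calls. The 4026 PANC1 calls became 1238 with all 8 PANC1 libraries in one model and 2868 to 4321 with a library left out, and 47.5% of them were higher with gemcitabine after GC correction against 59.1%. Differences between the lines went from 3428 to between 1896 and 3368 with a library left out, and to 5109 after GC correction (41.1% positive against 52.5%). The median co-treatment position ran from 0.953 to 1.14 with a library left out, and was 1.01 after GC correction, a setting chosen after seeing the data. The causes were not tested.

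No label ties replicates of the same number, and the correlation of their deviations was 0.029 in MiaPaCa2 and 0.14 in PANC1, so they were taken to share only a number. With the replicate block 3846 MiaPaCa2 genes, 4293 PANC1 genes and 4788 differences between the lines were called, and with GC correction and the block 3770 in MiaPaCa2. With 2 libraries per group, a miss does not show that the drugs acted alike.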
